A study of Mus musculus with 9 samples.

Results

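The genes of the IL-20 cytokine family and its receptors were followed in the skin transcriptome of *Supt6*-KO mice. They are the 4 clustered ligand genes *Il19*, *Il20*, *Il24* and *Il10* and the 5 receptor genes *Il20ra*, *Il20rb*, *Il22ra1*, *Il10ra* and *Il10rb*, chosen by name, and all 9 have a row among the 17943 genes of the count table. Libraries came from 5 control mice and 4 *Supt6*-KO mice, collected 10 days after the last injection. The *Supt6*-KO mice carried K14-CreERT, in which a keratin 14 promoter drives a tamoxifen-inducible Cre in basal keratinocytes, together with homozygous floxed *Supt6* alleles (*Supt6* fl/fl), and they received tamoxifen by intraperitoneal injection for 5 days. According to the study's methods the controls were *Supt6* fl/fl mice without the Cre transgene that received corn oil, whereas the labels call them wild type, so that Cre, tamoxifen and loss of *Supt6* cannot be told apart here. The labels name the tissue as ear and the study's text dorsal skin. All 9 mice had the epidermal keratin *Krt5* at 36628 counts or more, and the cartilage genes *Acan* and *Col2a1* had at least 3048 and 1474 counts in every control against at most 356 and 140 in every *Supt6*-KO mouse. Whether the tissue sampled differed between the groups was not tested, and such a difference cannot be told apart from the other differences between them. Mouse ages for these libraries were not given in the sources used here.

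IL-19, IL-20 and IL-24 are cytokines of the IL-10 superfamily that are made by keratinocytes and myeloid cells and act mainly on epithelial cells. They signal through a receptor of IL-20RA with IL-20RB, and IL-20 and IL-24 also through IL-22RA1 with IL-20RB, whereas IL-10 uses IL-10RA with the widely expressed IL-10RB and acts on leukocytes. Both kinds of receptor pass the signal through Janus kinases to STAT3, and in skin the IL-20 family is known for epidermal thickening, altered keratinocyte differentiation and the induction of antimicrobial proteins in psoriasis.

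The libraries held 29627341 to 30967107 estimated counts. Values are given as these counts, rounded to whole numbers, or as CPM, the counts scaled to a library of fixed size, after TMM scaling, a correction for the composition of a library. The groups were compared with edgeR's quasi-likelihood test over the 16426 genes with at least 10 counts in sum, and a gene was called higher or lower at a Benjamini-Hochberg adjusted p under 0.05. The targeted gene, *Supt6*, measured 56.6 to 96.7 CPM in the controls and 21.9 to 28.6 CPM in the *Supt6*-KO mice, with a log2 fold change of -1.57 (SE 0.18, adjusted p = 1.29e-05, edgeR) that was -0.82 after a correction for transcript length (adjusted p = 1.02e-04, edgeR). Of all genes tested, 34.1% were higher and 36.8% lower in *Supt6*-KO skin, and 28.9% had every *Supt6*-KO mouse above every control, against 31.8% below. These are the shares against which the counts for the family have to be read. TMM factors were 1.198 to 1.315 in the controls and 0.674 to 0.910 in the *Supt6*-KO mice, and scaling by library totals in place of TMM moved the median over all genes from -0.07 to -0.76 on the log2 scale. Directions of the receptor genes are therefore given under both scalings.

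All 9 genes passed the count filter, 5 of them were called higher in *Supt6*-KO skin (*Il19*, *Il24*, *Il10*, *Il10ra* and *Il10rb*), 0 lower, and 4 were not called. The 3 called ligands had log2 fold changes above 3 and both called receptors below 1, and the median was 5.02 over the 4 ligands and 0.47 over the 5 receptors. Without *Supt6*-KO mouse 4 the ligand median was 4.05. The median over the 9 genes was 0.51, beside -0.07 over all genes tested. The 5 called genes were also those in which every *Supt6*-KO mouse lay above every control, beside 28.9% of all genes. For each of them a two-sided exact permutation test of mean log2 CPM gave p = 0.0159, the smallest value that 5 mice against 4 allow. This p follows from the separation of the groups and adds nothing to it. With library totals, where 16.9% of all genes were higher and 54.6% lower, 3 of the 9 were called higher, all of them ligands, and 2 lower. In whole skin, more cells of a type and more RNA per cell cannot be told apart for any of these genes.

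**Figure D1:**
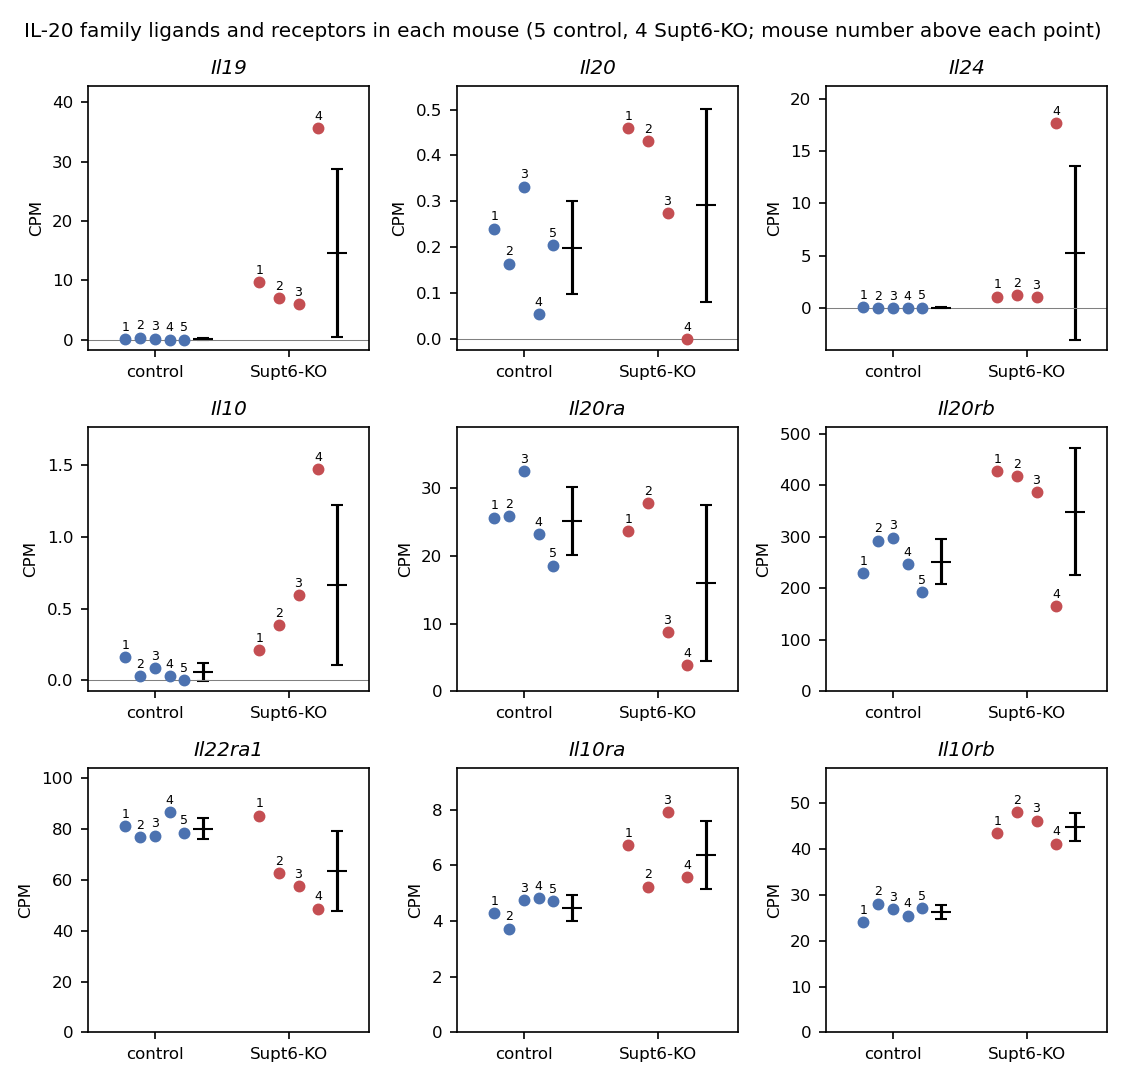
CPM (vertical axes, from 0 upwards, each gene on its own scale) of the 9 genes in every mouse, with the mouse number above each point and the mean ± SD of 5 control and 4 *Supt6*-KO mice as black bars. *Il19*, *Il24*, *Il10*, *Il10ra* and *Il10rb* do not overlap between the groups, and *Supt6*-KO mouse 4 is the highest in the first 3 of these and the lowest of its group in *Il20ra*, *Il20rb* and *Il22ra1*.

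*Il19* encodes IL-19, a ligand of the IL-20RA/IL-20RB receptor. The 5 controls had 6, 14, 6, 1 and 0 counts of *Il19*, and the 4 *Supt6*-KO mice had 233, 147, 130 and 991. The gene was close to undetected in control skin, where 3 counts correspond to 0.0764 to 0.083 CPM, and was plainly present in every *Supt6*-KO mouse. The mean was 0.147 ± 0.152 CPM (SD, n = 5) in the controls and 14.6 ± 14.1 CPM (SD, n = 4) in *Supt6*-KO skin. The log2 fold change was 6.61 (SE 0.79, adjusted p = 1.93e-05, edgeR), and the ratio of the summed counts per library size was 110 with a 95% interval of 75 to 167 that covers counting error only. *Supt6*-KO mouse 4 held 66.0% of all *Il19* counts of its group, at 35.6 CPM against 5.95 to 9.74 CPM in the other 3. Without this mouse the log2 fold change was 5.66 (adjusted p = 5.78e-06, edgeR).

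*Il24* encodes IL-24, which is bound by both receptor pairs that contain IL-20RB. It had 3, 0, 0, 0 and 1 counts in control skin and 26, 25, 23 and 492 in the *Supt6*-KO mice. The first 3 *Supt6*-KO mice agreed closely, within 1.05 to 1.2 CPM, and mouse 4 stood apart at 17.7 CPM with 86.9% of the group's counts. Its log2 fold change was 7.70 (SE 1.27, adjusted p = 2.16e-04, edgeR) and fell to 5.46 without mouse 4 (adjusted p = 1.41e-05, edgeR). Since the controls held only 4 counts in sum, the ratio of summed counts per library size, 279, has a wide counting interval of 108 to 1028, and without mouse 4 the ratio was 52.6.

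*Il10* encodes IL-10, a cytokine that restrains leukocytes and does not use the IL-20 receptors. Its counts were low everywhere, with 6, 1, 3, 1 and 0 in the controls and 5, 8, 13 and 41 in the *Supt6*-KO mice. In CPM the groups did not overlap, since the highest control was at 0.161 and the lowest *Supt6*-KO mouse at 0.209. This gap is narrower than the 3-count level of 0.108 to 0.144 CPM in the *Supt6*-KO libraries, and counts of 6 and 5 stood on its sides. The log2 fold change was 3.43 (SE 0.74, adjusted p = 0.0015, edgeR), and 2.65 without mouse 4, which held 61.2% of the group's counts (adjusted p = 0.00591, edgeR).

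*Il20*, the ligand that gives the family its name, was not called, although it lies between *Il24* and *Il19*. It had 9, 6, 12, 2 and 8 counts in control skin and 11, 9, 6 and 0 in the *Supt6*-KO mice, and the groups overlapped. In CPM, *Supt6*-KO mice 1 and 2, at 0.460 and 0.432, lay above the controls (0.0541 to 0.332) and mouse 4 below them. The log2 fold change of *Il20* was 0.51 (SE 0.70, adjusted p = 0.53, edgeR) and took the opposite sign with library totals, at -0.22. Without mouse 4 it was 0.95 and was not called (adjusted p = 0.0976, edgeR). The ratio of summed counts per library size was 1.39, with an interval of 0.806 to 2.35 that covers counting error only and not the spread between mice. *Supt6*-KO mouse 4, the highest for *Il19*, *Il24* and *Il10*, had 0 counts of *Il20*, which allows up to 0.108 CPM.

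The 4 ligand genes form a cluster on mouse chromosome 1 (GRCm38, RefSeq coordinates), in the order *Il24* (NCBI gene 93672, 130882074 to 130887411), *Il20* (58181, 130906985 to 130911296), *Il19* (329244, 130932656 to 130945457) and *Il10* (16153, 131019845 to 131024970). Of the 5 genes with a row on each side of the cluster, 5 were higher, 2 lower and 3 not called, beside 34.1% higher and 36.8% lower among all genes. The higher neighbours were *Yod1* (log2 fold change 1.96), a deubiquitinase gene, the Fc receptor genes *Fcmr* (2.05) and *Fcamr* (0.70), the kinase gene *Dyrk3* (1.52) and the translation factor gene *Eif2d* (0.80), and the lower ones *AA986860* (-0.52) and *Rassf5* (-0.60). *Eif2d* and *Rassf5* overlap in position, and as the counting is not stated to use strand, their reads may be shared. None of these neighbours changed as much as *Il24*, *Il19* or *Il10*, and *Pigr* and *Mapkapk2*, on opposite sides of the cluster, were not called.

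**Figure D2:**
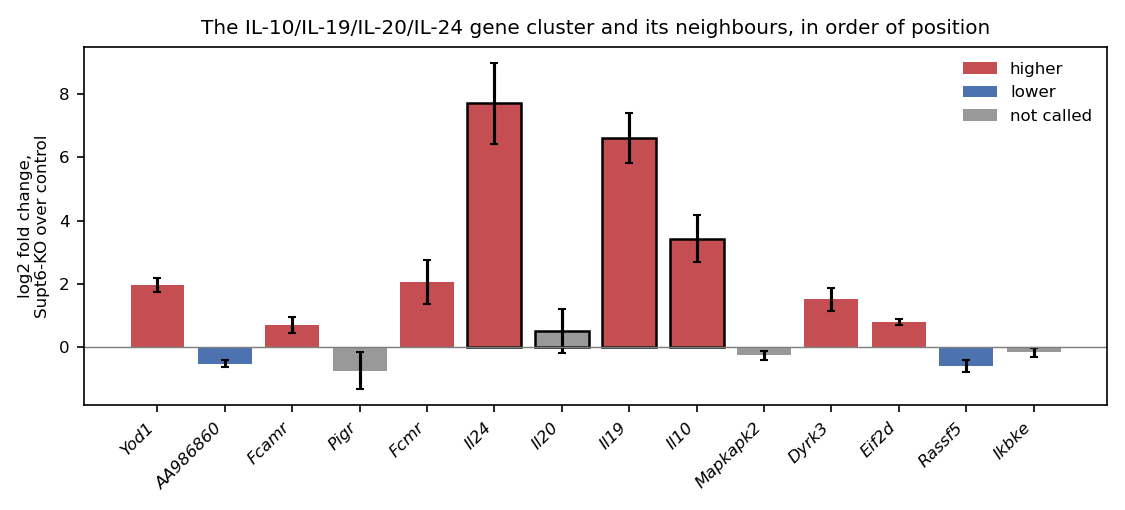
Log2 fold change of *Supt6*-KO over control (vertical axis, bars with SE from edgeR, 5 against 4 mice) for the 4 ligand genes, outlined in black, and 5 neighbours on each side in order of position. *Il24*, *Il19* and *Il10* reach 7.70, 6.61 and 3.43, *Il20* between them is at 0.51, and the highest neighbour, *Fcmr*, is at 2.05.

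Upstream sequence was available here from RefSeq for 5 of the 9 genes, namely *Il19*, *Il20*, *Il20ra*, *Il20rb* and *Il22ra1*. The 250 bases before 1 transcript start per gene, as RefSeq's promoter windows have it, were searched on both strands for the consensus of NF-κB, for that of the STAT factors (TTCNNNGAA), for AP-1 (TGANTCA) and for C/EBP (TTNNGCAA). Among 27025 promoters of the same length, 7.0% held the NF-κB letters, 7.2% the STAT letters, 6.9% the AP-1 letters and 9.6% the C/EBP letters. The *Il19* window held 1 NF-κB match, from base -77 to -68, and 1 STAT match, from base -225 to -217. *Il22ra1*, which was not called, held 1 NF-κB match from base -156 to -147 and 1 AP-1 match from base -222 to -216. The 2 windows are printed to set the ligand with a large rise beside a receptor with an NF-κB match and no call, each 5′ to 3′ along its gene with the matches in capitals. They are chr1:130940116-130940365 on the reverse strand and chr4:135727909-135728158 on the forward strand of GRCm38, and neither holds an annotated GENCODE exon. For *Il19* and *Il20ra* this start lies inside the RefSeq gene, which reaches further upstream, so the starts of their longer transcripts were not searched.
Il19: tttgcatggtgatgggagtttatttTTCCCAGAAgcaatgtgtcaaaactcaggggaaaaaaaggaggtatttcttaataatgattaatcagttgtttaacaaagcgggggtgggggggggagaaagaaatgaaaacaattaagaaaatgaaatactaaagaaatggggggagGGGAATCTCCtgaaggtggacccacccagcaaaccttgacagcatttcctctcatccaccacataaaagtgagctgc
Il22ra1: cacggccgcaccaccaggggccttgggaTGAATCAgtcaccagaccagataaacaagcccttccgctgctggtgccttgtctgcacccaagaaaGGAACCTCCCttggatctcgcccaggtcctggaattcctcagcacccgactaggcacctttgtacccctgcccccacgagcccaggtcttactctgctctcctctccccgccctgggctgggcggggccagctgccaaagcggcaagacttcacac
In the other 3 windows, *Il20* had none of the 4 motifs, *Il20ra* had 1 AP-1 match and *Il20rb* 1 C/EBP match. No matches overlapped one another. The matches describe letters in the reference and were not tested for binding.

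The receptor genes, unlike the ligands, were expressed in the skin of every mouse. *Il20rb*, the subunit shared by both receptors for IL-20 and IL-24, was the most abundant of the 9 genes per transcript length. On a TPM-like scale, counts per length set to the same total in every mouse, with the lengths behind the deposited TPM values and no composition factor, its level was 182 ± 12.5 (SD, n = 5) in the controls. *Il10rb* followed at 27.1 ± 3.43, *Il22ra1* at 23.0 ± 3.32 and *Il20ra* at 22.1 ± 2.58, and these 3 did not differ beyond their spread. *Il10ra* was at 2.23 ± 0.429, *Il20* at 0.452 ± 0.221, *Il19* at 0.270 ± 0.266, *Il10* at 0.0933 ± 0.104 and *Il24* at 0.0446 ± 0.0709, of which the last 3 overlapped one another. With GENCODE lengths *Il22ra1* came second, at 89.7 ± 10.0, as its length was 6654 bases by the deposited values and 2569 by GENCODE. In *Supt6*-KO skin *Il20rb* stayed first at 87.1 ± 21.8, *Il10rb* second at 16.7 ± 3.66, and *Il19* moved from the seventh place to the third at 12.8 ± 15.9, a mean set by mouse 4 at 36.6 against 3.51 to 7.16 in the other 3 mice. With GENCODE lengths the order in *Supt6*-KO skin was *Il20rb*, *Il22ra1* (32.5 ± 8.67), *Il10rb* (21.2 ± 3.14) and *Il19* (19.8 ± 23.4). With the deposited lengths, all 5 receptor genes were lower in every *Supt6*-KO mouse than in every control on this scale. The 2 called higher after TMM scaling were among them. *Il10rb* was at 14.1 to 21.9 against 24.9 to 33.0 in the controls, and *Il10ra* at 0.740 to 1.425 against 1.62 to 2.76. With GENCODE lengths *Il10rb* overlapped between the groups.

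*Il20ra* encodes the subunit that binds IL-19 together with IL-20RB. It had 958, 943, 1173, 857 and 728 counts in control skin and 565, 579, 191 and 108 in the *Supt6*-KO mice. After TMM scaling mice 1 and 2 of the *Supt6*-KO group lay within the control range, at 23.6 and 27.8 CPM beside 18.5 to 32.5 CPM, whereas mice 3 and 4 were far below it at 8.74 and 3.88 CPM. On the log2 scale the fold change was -0.65 (SE 0.45, adjusted p = 0.21, edgeR), and with library totals it was -1.41 (adjusted p = 0.0111, edgeR).

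*Il20rb* had 8589, 10681, 10773, 9145 and 7590 counts in control skin and 10238, 8700, 8460 and 4594 in the *Supt6*-KO mice. Mice 1 to 3 of the *Supt6*-KO group, at 387 to 428 CPM, were above every control (193 to 298 CPM), and mouse 4 was below every control at 165 CPM. The log2 fold change over all mice was 0.47 (SE 0.25, adjusted p = 0.12, edgeR). Without mouse 4 it was 0.70 and passed the threshold (adjusted p = 0.00102, edgeR), and with library totals it took the opposite sign, at -0.27 (adjusted p = 0.28, edgeR).

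*Il22ra1* encodes the alternative partner of IL-20RB, found on epithelial cells. It had 3032, 2802, 2793, 3201 and 3084 counts in the controls, the narrowest spread among the receptors of the IL-20 ligands, and 2039, 1304, 1254 and 1353 in the *Supt6*-KO mice. In CPM, mouse 1 of the *Supt6*-KO group lay within the controls at 85.2, and the other 3, at 48.6 to 62.6, were below all of them (76.7 to 86.6). The log2 fold change was -0.34 (SE 0.15, adjusted p = 0.0644, edgeR). It passed the threshold without *Supt6*-KO mouse 1, at -0.51 (adjusted p = 0.00348, edgeR), and with library totals, at -1.04 (adjusted p = 1.28e-04, edgeR), and it was negative under every setting tried.

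*Il10rb*, the shared second subunit of the receptors for IL-10 and several related cytokines, had the smallest SE of the 9 genes. It had 897, 1025, 971, 940 and 1063 counts in control skin and 1040, 1001, 1009 and 1144 in the *Supt6*-KO mice, nearly the same before scaling. After TMM scaling it was at 26.3 ± 1.59 CPM (SD, n = 5) and 44.7 ± 3.04 CPM (SD, n = 4), with a log2 fold change of 0.77 (SE 0.10, adjusted p = 3.55e-05, edgeR) that became 0.06 with library totals (adjusted p = 0.65, edgeR). *Il10ra*, the ligand-binding IL-10 subunit of leukocytes, had 160, 136, 172, 178 and 185 counts in control skin and 161, 109, 173 and 155 in the *Supt6*-KO mice. Its log2 fold change was 0.51 (SE 0.17, adjusted p = 0.019, edgeR), and it was no longer called without *Supt6*-KO mouse 3 (0.38, adjusted p = 0.0748, edgeR) and had the opposite sign with library totals (-0.19, adjusted p = 0.379, edgeR). With library totals neither IL-10 receptor gene was called, and *Il10ra* turned sign while *Il10rb* did not. The log2 fold changes of both genes exceeded the median of all genes under both scalings.

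**Figure D3:**
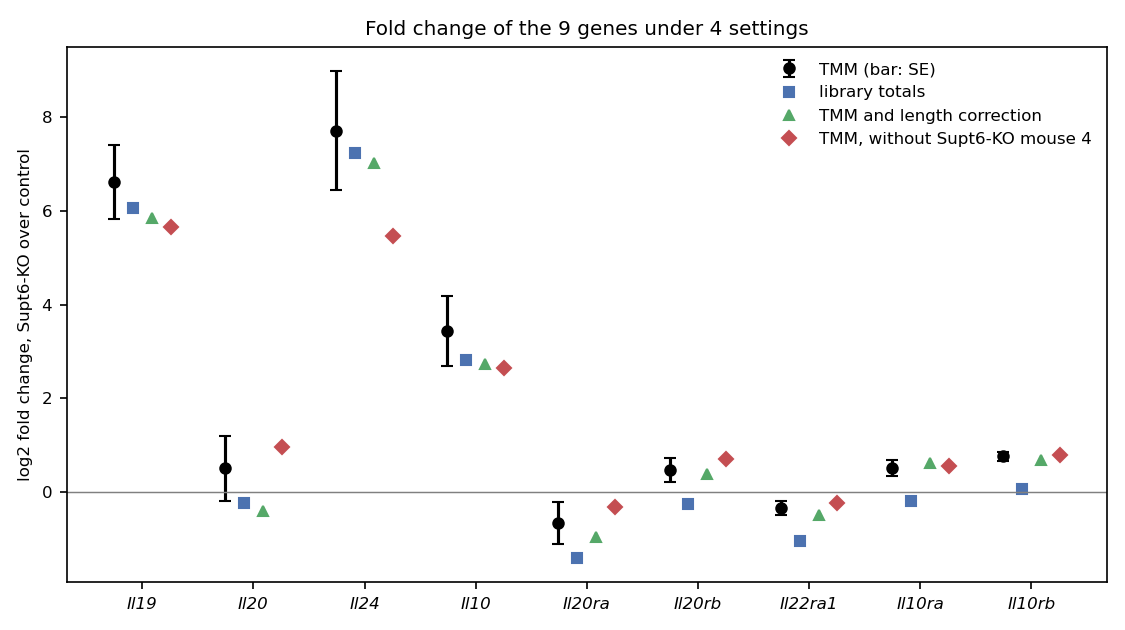
Log2 fold change of *Supt6*-KO over control (vertical axis) of each of the 9 genes with TMM scaling (black, bars SE), with library totals, with TMM and a correction for transcript length, and with TMM but without *Supt6*-KO mouse 4. *Il19*, *Il24* and *Il10* stay above 2 in all 4, whereas *Il20*, *Il20rb* and *Il10ra* cross 0 and *Il10rb* falls to 0.06 with library totals.

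The receptor genes lie apart from one another, and over the 50 genes nearest to them, 10 for each, 15 were higher and 20 lower, shares near those of all genes (34.1% and 36.8%). *Il10rb* (NCBI gene 16155, chromosome 16, 91406157 to 91425834) lies in the row of interferon receptor genes, between *Ifnar2* (log2 fold change -0.15) and *Ifnar1* (-0.03), neither of which was called, and near *Ifngr2*, which was higher (1.05). Around *Il20ra* (237313, chromosome 10, 19711673 to 19760053), 3 of the 10 nearest genes with a row were higher, namely *Perp* (1.55), *Pex7* (1.54) and *Rpl32l* (2.41), which lies within *Map7* and may share reads with it, and 5 lower, among them *Tnfaip3* (-1.04), *Ifngr1* (-0.71), *Map3k5* (-0.90) and *Map7* (-1.23). Around *Il20rb* (213208, chromosome 9, 100457719 to 100486473) 1 was higher (*Nck1*, 1.29) and 4 lower, around *Il22ra1* (230828, chromosome 4, 135728159 to 135755383) 3 were higher and 4 lower, and around *Il10ra* (16154, chromosome 9, 45253837 to 45269149) 5 were higher and 5 lower. *Ifnlr1*, the gene next to *Il22ra1*, was not called (-0.23). Of 6 further receptor genes listed here for this structural class, *Ifngr2* was higher, *F3*, the tissue factor gene, was lower (-1.67), as was *Ifngr1*, and 3 were not called. With library totals *Ifngr2* was not called (0.32) and 5 of the 6 were lower, beside 54.6% of all genes.

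Inside the cell, the signal is relayed and restrained by kinases, STATs, phosphatases and inhibitors. Of 15 such JAK-STAT relay and feedback genes, 10 were lower and 3 higher, beside 36.8% and 34.1% of all genes, with a median log2 fold change of -0.65. The Janus kinase genes *Jak1* (-0.81, SE 0.13), *Tyk2* (-0.79, SE 0.14) and *Jak2* (-0.31, SE 0.10) were all lower. In each, every *Supt6*-KO mouse lay below every control, as in 31.8% of all genes. *Stat3*, the main STAT of these receptors, had 6043, 5188, 3953, 6336 and 5265 counts in control skin and 2316, 1891, 1711 and 2824 in the *Supt6*-KO mice, a log2 fold change of -0.65 (SE 0.15, adjusted p = 0.00211, edgeR). *Stat5a* (-1.65) and *Stat5b* (-1.27) were lower as well. The phosphatase genes *Ptpn6* (-1.18) and *Ptpn11* (-0.82), the STAT inhibitor gene *Pias3* (-0.39) and the feedback inhibitor gene *Cish* (-0.74) were also lower.

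The genes called higher in this list are known to be induced by cytokine signaling. *Socs3*, which encodes the inhibitor induced by STAT3, had 971, 576, 718, 569 and 363 counts in control skin and 677, 588, 550 and 1150 in the *Supt6*-KO mice, with a log2 fold change of 0.83 (SE 0.26, adjusted p = 0.0125, edgeR). Its groups overlapped. *Socs1* (0.98, SE 0.24) overlapped as well, and *Bcl3*, an IκB-related STAT3 target (1.57, SE 0.37), did not. Among all genes, 28.9% had every *Supt6*-KO mouse above every control. *Socs2* was not called (-0.28). With library totals none of the 15 was higher and 12 were lower, beside 16.9% and 54.6% of all genes. After a correction for transcript length 4 were higher and 6 lower, the median was -0.01, and *Stat3* was at 0.02 (adjusted p = 0.90, edgeR) and *Jak2* at 0.16 (adjusted p = 0.119, edgeR), neither of them called.

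**Figure D4:**
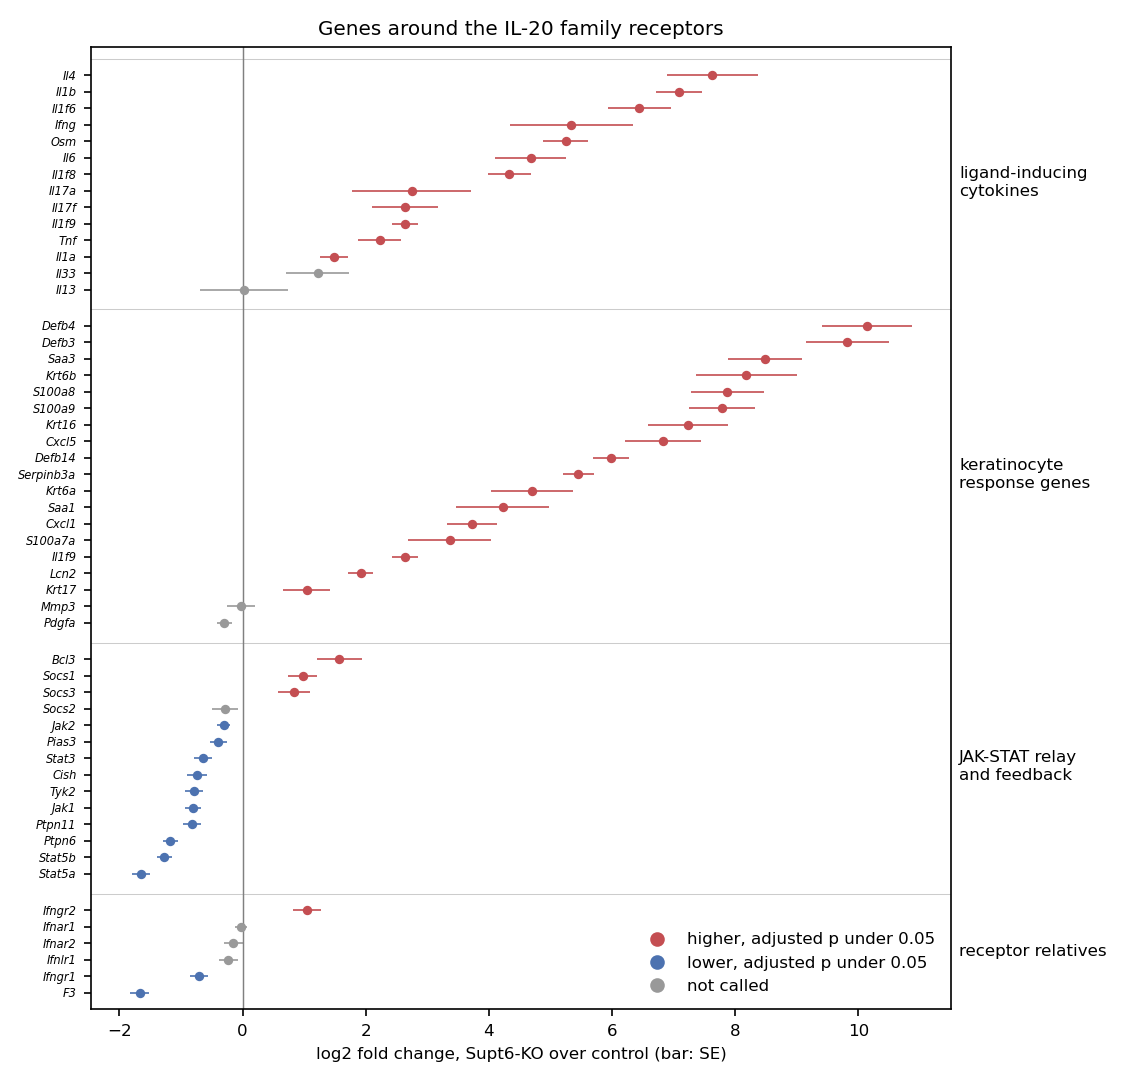
Log2 fold change of *Supt6*-KO over control (horizontal axis, bars SE from edgeR, 5 against 4 mice) for the receptor relatives, the JAK-STAT relay and feedback genes, keratinocyte genes known to respond to IL-20 family cytokines and cytokines known to induce the ligands, with 14 of the 15 JAK-STAT genes drawn. In red are genes called higher and in blue genes called lower, and the JAK-STAT genes lie mostly left of 0 while 17 of 19 response genes and 12 of 14 inducing cytokines lie to its right in red.

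Keratinocyte genes known to respond to IL-20 family cytokines were chosen with their rise in these libraries already known, so their count is no independent evidence of a direction. Of 19 tested, 17 were higher and 0 lower, beside 34.1% and 36.8% of all genes, and the median log2 fold change was 5.45. The antimicrobial β-defensin genes *Defb4* (10.14, SE 0.73) and *Defb3* (9.82, SE 0.67) led the list. They had only 6 and 2 counts over the 5 controls, so the ratios of their summed counts per library size, 1313 and 1207, have 95% counting intervals of 603 to 3581 and 333 to 9976. They were followed by the acute-phase gene *Saa3* (8.49), the hyperproliferation keratin gene *Krt6b* (8.18) and *S100a8* (7.87), which encodes a subunit of calprotectin. After the correction for transcript length *Defb4* stayed first at 8.57, and *Saa3* (8.22) and *Krt6b* (7.95) lay above *Defb3* (7.65). *S100a8* was then at 6.08. *Krt16*, the most abundant gene of the list over all 9 mice through *Supt6*-KO mouse 4, was at 24.0 ± 13.5 CPM (SD, n = 5) in control skin and at 3607 ± 2970 CPM (SD, n = 4) in *Supt6*-KO skin. Summed over the list, the controls had 393 to 722 CPM and the *Supt6*-KO mice 11270, 9537, 13380 and 26270 CPM. Mouse 4, the highest for *Il19* and *Il24*, also had the highest sum. Most of that sum was keratin RNA, with *Krt16* at 8000 CPM, *Krt6a* at 7578 CPM and *Krt6b* at 6183 CPM. Other genes of the list went either way in mouse 4. It was the highest of its group for *Defb4* (71.7 CPM) but the lowest for *S100a8* (931 CPM), *S100a9* (1561 CPM) and *Defb3* (4.17 CPM). The sum of the neutrophil markers, given below, was also the lowest of the group in mouse 4, at 45.6 CPM. The part of neutrophils in the *S100a8* level was not tested. *Mmp3* (-0.03) and *Pdgfa* (-0.30) were not called, and with library totals 16 of the 19 were higher and 2 lower, beside 16.9% and 54.6% of all genes. These genes also respond to other cytokines, and how much of their level follows the IL-20 family was not tested.

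Of 14 cytokine genes known to induce the ligands, 12 were higher and 0 lower, beside 34.1% and 36.8% of all genes. The largest changes among those above 1 CPM were in *Il1b* (7.09, SE 0.38), the IL-36 genes *Il1f6* (6.45, SE 0.51) and *Il1f8* (4.33, SE 0.35), *Osm*, the oncostatin M gene (5.25, SE 0.36), and *Il6* (4.68, SE 0.58). *Il4* and *Ifng* had 0 counts in all controls, with 17, 19, 9 and 31 counts of *Il4* and 5, 1, 5 and 4 counts of *Ifng* in the *Supt6*-KO mice, at least 9.76-fold and 1.95-fold higher against a level of 3 counts per control library. The median log2 fold change of the list was 3.54 as fitted and 2.70 with these 2 genes at their bounds. *Il33* (1.22) and *Il13* (0.02) were not called. The summed level was 142 to 228 CPM in the controls and 1898, 2313, 2343 and 1145 CPM in the *Supt6*-KO mice, where mouse 4 was the lowest of its group. This sum is mostly IL-36 RNA, and mouse 4 was the highest of its group for *Il6* (4.96 CPM), *Osm* (4.24 CPM), *Il4* (1.11 CPM) and *Il33* (401 CPM against 48.1 to 76.2 CPM in the other 3). As with the response genes, the members of this list were chosen with earlier results known.

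Macrophage and neutrophil markers were mostly higher in *Supt6*-KO skin. Of 14 macrophage and monocyte markers 12 were higher and 1, *Csf1r* (-1.83), lower, beside 34.1% and 36.8% of all genes, and their sum was 263, 243, 181, 244 and 393 CPM in the controls and 953, 976, 1326 and 801 CPM in the *Supt6*-KO mice, with *Lyz2* the most abundant. Of 11 neutrophil markers tested 9 were higher and 1, *Mpo*, lower, with a sum of 16.8 to 22.4 CPM against 54.5, 54.3, 116 and 45.6 CPM. The most abundant were *Mmp9* in control skin and *Retnlg* in *Supt6*-KO skin, while the defining gene *Ly6g* was counted 4, 0, 15 and 1 times in the *Supt6*-KO mice and once over the controls. The pan-leukocyte gene *Ptprc* was not called (0.24), and its list summed to 103, 99.4, 87.7, 96.7 and 103 CPM against 125, 121, 159 and 98.6 CPM, with 3 of 5 markers higher, among them *Cd53*, the most abundant in *Supt6*-KO skin, and *Laptm5*, the most abundant in control skin, lower. With library totals 6 macrophage and monocyte markers were higher and 1 lower, and 1 pan-leukocyte marker was higher and 2 lower, beside 16.9% higher and 54.6% lower among all genes. Expressed per 100 counts of *Ptprc*, *Il10ra* was at 22.4 to 26.9 in the controls and 33.5, 23.2, 27.7 and 35.8 in the *Supt6*-KO mice, and the groups overlapped. Per 100 counts of *Laptm5*, which was itself lower, it was at 11.9 to 19.9 in control skin and at 59.2, 91.6, 107 and 47.3 in *Supt6*-KO skin, with no overlap. *Supt6*-KO mouse 3 had the highest macrophage and neutrophil sums. Without *Lyz2* the macrophage list summed to 110 to 273 CPM in control skin and to 347, 335, 416 and 394 CPM in *Supt6*-KO skin. The part of leukocytes in the rise of the ligands was not tested.

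T cell and Langerhans cell markers had lower sums in *Supt6*-KO skin. Of 11 T cell markers 2 were higher (*Cd5*, 2.36, and *Cd8a*, 1.88) and 4 lower (*Cd3e*, -4.13, *Cd3g*, -2.65, *Il7r*, -1.72, and *Cd3d*, -0.75). The lower share was close to the 36.8% of all genes that were lower. The sum went from 40.7, 46.6, 47.2, 41.7 and 37.3 CPM to 28.8, 21.4, 22.2 and 20.95 CPM, with *Cd3g* the most abundant in control and *Cd5* in *Supt6*-KO skin. Of 9 Langerhans and dendritic cell markers 6 were lower and 1, *Ccr7*, higher, with a sum of 1150, 1202, 1133, 1094 and 926 CPM against 581, 408, 345 and 214 CPM and *Cd74* the most abundant in control skin. In *Supt6*-KO skin the most abundant was *Epcam* (180 CPM), which was not called. The B cell marker *Ms4a1* had 0 counts in every control and 3, 1, 1 and 1 in the *Supt6*-KO mice. With library totals 6 T cell markers were lower and 2 higher, and the lower share was again close to that of all genes (54.6%).

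Keratinocyte markers were examined beside the receptors of the IL-20 ligands, which are known from epithelial cells. Of 6 basal markers 5 were lower, and the sixth, *Krt14* (0.66, adjusted p = 0.0633, edgeR), had 116720 to 139122 counts in control skin and 113209, 64901, 86616 and 267613 in *Supt6*-KO skin. The basal list summed to 9575, 9921, 9570, 10550 and 9523 CPM in the controls and 8058, 5411, 6519 and 13870 CPM in the *Supt6*-KO mice, with *Krt5* the most abundant in control and *Krt14* in *Supt6*-KO skin. Of 7 suprabasal markers 3 were higher (*Krt1*, *Dsc1* and *Ivl*) and *Lor* lower, with sums of 19970 to 22470 CPM against 39470, 37710, 35970 and 19100 CPM and *Krt10* the most abundant. Among all genes 34.1% were higher and 36.8% lower. With library totals 3 were higher and 4 lower, beside 16.9% and 54.6% of all genes. Mouse 4 had the highest basal and the lowest suprabasal sum of its group, and per 100 counts of *Krt14* it had 1.72 counts of *Il20rb*, against 9.04 to 13.4 in *Supt6*-KO mice 1 to 3 and 6.50 to 8.99 in the controls. For *Il20ra* this ratio was 0.0404 in mouse 4 and 0.220 to 0.892 in the other 3, beside 0.624 to 0.979 in the controls. For *Il22ra1* it was 0.506 in mouse 4 and 1.448 to 2.009 in the other 3, beside 2.014 to 2.642 in the controls. Every *Supt6*-KO mouse thus lay below every control in this *Il22ra1* ratio, mouse 2 only just. Per 100 counts of *Krt5*, which was lower, *Il20ra* was at 0.873, 1.58, 0.427 and 0.106 in the *Supt6*-KO mice and 0.401 to 0.705 in the controls, so that mice 1 and 2 lay above the controls and mouse 4 below them. The part of epidermal composition in the receptor values was not tested.

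**Figure D5:**
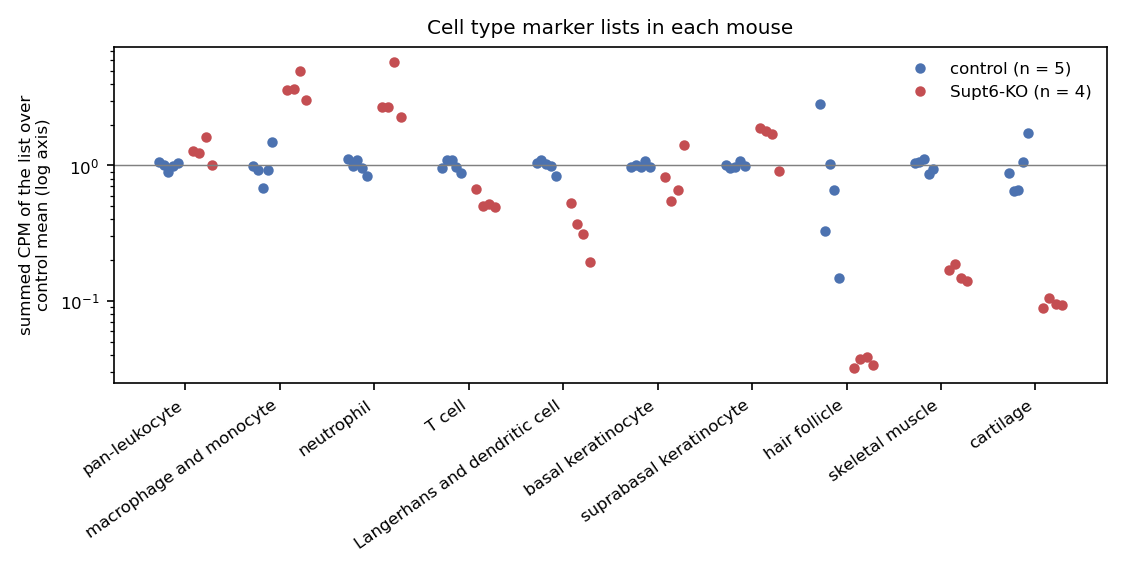
Summed CPM, after TMM scaling, of 10 cell type marker lists in each mouse, divided by the control mean of the list (vertical log axis), with 5 control mice in blue and 4 *Supt6*-KO mice in red. Macrophage and neutrophil sums lie above 1 in all *Supt6*-KO mice, T cell, Langerhans, hair follicle, muscle and cartilage sums below it, and in the keratinocyte lists mouse 4, the rightmost red point, stands apart from the other 3.

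The genes with the profile most like that of *Il19*, the most abundant ligand over all 9 mice, were sought among 13018 genes by Pearson's r of log2 CPM over the 9 mice. *Raly* (r = 0.997), *Nufip1*, *Dhrs13*, *Tssc4* and *Rrp15* (r = 0.994) were the closest. Like *Il19*, each was lowest in the controls and highest in *Supt6*-KO mouse 4, although their rises were small, with log2 fold changes of 0.80 to 1.3 beside 6.61 for *Il19*. For *Il20rb*, the most abundant receptor, the closest were *Itm2b* (r = 0.995), *Kremen2*, *Calm5*, *Mrm1* and *Capn10* (r = 0.984), in each of which mouse 4 had the lowest level of its group, for example 1597 CPM of *Itm2b* against 3029 to 3366 CPM in the other 3. These r values describe mice that share their group and scaling factor, and carry no test.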

How the data were processed

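Skin RNA of 5 control and 4 *Supt6*-KO mice was sequenced. According to the study's methods and the labels, reads of both ends were aligned to mm10 by Bowtie2 2.3.4.3. The estimated counts that the authors deposited come from RSEM 1.3.1 and were not scaled between mice, and 9.00% of the values are not whole. The authors also deposited TPM values for 6 mice, which were used here only to recover transcript lengths. Replicate numbers are those of the sample titles, each a separate mouse. Of the NCBI gene identifiers 17917 matched RefSeq genes of GRCm38 and 26 did not.

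Counts were rounded, genes with a sum under 10 left out, and the rest tested with edgeR 4.0.16 (R 4.3.3, quasi-likelihood test, TMM, no covariate) with Benjamini-Hochberg adjustment over all 16426 genes. On simulated data with 200 genes changed 4-fold, 97.5% were recovered and 10 unchanged genes called among 16311 tested. The changed genes were all above 1 CPM and went in both directions. Far fewer genes changed there than in the real data, so the simulation does not test the TMM scaling on which the receptor calls depend. Intervals of count ratios are exact binomial at 95% and, like the level of 3 counts, cover counting error only. Other settings tried were library totals, factors from the upper quartile, TMM without the 50 most abundant genes, DESeq2 1.42.0, other filters, unrounded counts, a correction for length, a replicate block, stricter calls including a 2-fold test, and the removal of each mouse in turn.

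The 9 genes and all lists were chosen with earlier results of these data known. Genes were named by rule. The rule selects the 9 genes, *Supt6*, the JAK, STAT and SOCS genes, the called neighbours and the 5 closest profiles. Per list it adds the most abundant gene over all 9 mice. It also adds up to 5 with the largest change among those called and above 1 CPM. In the cell type marker lists, many genes selected in this way, among them *Cd14*, *Cd207*, *Itgb4* and *Col17a1*, are not named elsewhere. Single genes outside the rule (uncalled genes, *Mmp3*, *Pdgfa*, *Il4*, *Ifng*, *Ly6g*, *Ptprc* and others) were added after their values were seen. For some receptor neighbourhoods only examples are named, and 1 called neighbour of *Il20ra*, 1 JAK-STAT gene and the B cell list as a whole are not reported here. A comparison of protein sequences was not made. Summaries used Python 3.11.15, pandas 2.3.3, scipy 1.17.1 and matplotlib 3.10.9.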

Additional observations from a re-analysis of the deposited data

Results flagged for a closer look

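Single mice stood apart from the rest of their group in 6 of 62 groups of values examined for the 9 genes and the lists, where chance alone would give about 3.1. *Supt6*-KO mouse 4 was far above the other 3 in *Il19* (35.6 CPM, group median 8.39), in *Il24* (17.7 CPM, group median 1.14) and in the sum of the 4 ligands (54.7 CPM, group median 10.3), which those 2 genes make up almost wholly. The same mouse was far below the others in *Il20rb* (165 CPM, group median 402). *Supt6*-KO mouse 3 was far above the others in the sum of the neutrophil markers (116 CPM, group median 54.4), and *Supt6*-KO mouse 1 in that of the T cell markers (28.8 CPM, group median 21.8). The cause was not tested for any of them.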

How the results depend on the processing

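*Il19*, *Il24* and *Il10* were called higher under every setting that gave them an adjusted p, with log2 fold changes of 5.66 to 7.33, 5.46 to 8.94 and 2.65 to 4.17. DESeq2 gave no adjusted p for *Il24*, for a reason not examined, and so called 4 of the 9 genes higher. A filter of 10 counts in every mouse removed the 4 ligands. The 5 genes called higher became 3 with library totals, 2 with that filter, and 3 with a test against a 2-fold change or with a 2-fold limit on adjusted or unadjusted p. The 0 called lower became 2 with library totals (*Il20ra* and *Il22ra1*) and 1 (*Il22ra1*) with upper-quartile factors, that filter, or the length correction. With each mouse left out, 4 to 6 were higher and 0 to 1 lower, the 1 being *Il22ra1* without *Supt6*-KO mouse 1. Among all genes, 2771 were higher with library totals, 2271 in the 2-fold test, and 3427 or 3464 with a 2-fold limit on adjusted or unadjusted p, against 5608, and 8970 were lower with library totals and 2770 in the 2-fold test, against 6050. The sign turned for *Il20* with library totals (-0.22) and the length correction (-0.40), and for *Il20rb* (-0.27) and *Il10ra* (-0.19) with library totals. The cause was not tested. Before the length correction the log2 fold change fell by 1.88 per log10 of length over 13570 genes, and after it the change rose by 0.21.

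Same-numbered mice of the 2 groups were not paired, since correlations of their deviations were -0.01 to 0.13 over 4 pairs. With the replicate block, 5 of the 9 genes were higher and 0 lower, and *Il19* was at 5.94. A level of 3 counts per library limits the precision for *Il20*, *Il10* and all ligands in the controls.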
